A study of Mus musculus with 36 samples.

Results

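The Slc25 genes encode the mitochondrial carriers, the family of small membrane proteins that move nucleotides, phosphate, amino acids, organic acids, vitamins and metal ions across the inner mitochondrial membrane. Members were chosen by gene symbol alone (Slc25a followed by a number, in GENCODE M21), with Slc25a20 and Slc25a46 set aside, which gave 45 of the 21968 genes in the count table. The libraries are single mouse oocytes at the germinal vesicle stage, before the first meiotic division resumes, each frozen in its own tube and sequenced with a SMART-seq protocol. The genotype labels give 18 oocytes from 4 mice (a to d) as Drp1_KO and 18 oocytes from 5 mice (1 to 5) as Drp1_WT. Drp1, encoded by Dnm1l, is the dynamin-like GTPase that divides mitochondria. The sources used here do not give the promoter that drove the deletion, the deleted exons, or the strain and age of the mice. The mouse was the replicate throughout, and each mouse gave 3 to 5 oocytes.

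Most carriers share a fold of repeated helix pairs, sit in the inner membrane, and exchange a substrate of the matrix for one of the intermembrane space. The ADP/ATP carriers export ATP made by oxidative phosphorylation and bring ADP back, while the phosphate carrier supplies the other substrate of ATP synthase. A growing oocyte relies on its mitochondria for ATP, since it uses glucose poorly and takes up pyruvate from the follicle cells around it. A few members work elsewhere, such as Slc25a17, which sits in the membrane of the peroxisome.

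The 3 ADP/ATP carriers of the mouse are close relatives, so part of their coding sequence is shown, to set their differences against the length of a read. Slc25a4 (ENSMUSG00000031633, GRCm38 chromosome 8, 46206797 to 46211284, minus strand), Slc25a5 (ENSMUSG00000016319, chromosome X, 36795651 to 36798807, plus strand) and Slc25a31 (ENSMUSG00000069041, chromosome 3, 40708855 to 40726096, plus strand) are each printed over 66 bases of the reading frame of a GENCODE M21 transcript. Capitals mark the 6 codons of the signature by which ADP/ATP carriers are recognised, found by translating each frame, and 24 bases stand on each side. The windows are coding bases 679 to 744 of Slc25a4 and Slc25a5 and 718 to 783 of Slc25a31.
Slc25a4: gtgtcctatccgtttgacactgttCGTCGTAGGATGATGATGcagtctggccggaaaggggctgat
Slc25a5: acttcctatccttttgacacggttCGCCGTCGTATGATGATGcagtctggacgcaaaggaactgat
Slc25a31: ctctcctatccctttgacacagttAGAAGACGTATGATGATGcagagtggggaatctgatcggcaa
Within the window Slc25a4 and Slc25a5 differed at 12 bases, 3 of them in the signature codons. Slc25a31 differed from Slc25a4 at 26 bases and from Slc25a5 at 25. Over the whole reading frame Slc25a4 and Slc25a5 were 77.5% identical, and Slc25a31 was 66.7% identical to each of them. The longest run of identical bases was 20 between Slc25a4 and Slc25a5, 14 between Slc25a4 and Slc25a31 and 21 between Slc25a5 and Slc25a31, each shorter than a 100-base read. No stretch of 100 bases in the transcripts of Slc25a4 or Slc25a31 occurred in another gene, while 8.33% of those of Slc25a5 occurred in 1 or more of 4 processed pseudogenes, so reads from these stretches of Slc25a5 cannot be assigned to it alone.

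Totals ran from 3178509 to 7406895 counts per oocyte. Dnm1l, the gene named by the label, averaged 201 counts per 1000000 counts of the library (CPM) under the Drp1_KO label (SD 24.2, n = 4). Under the Drp1_WT label it averaged 244 CPM (SD 66.6, n = 5), and the mice overlapped. Since the deleted exons are not given, counts over the whole gene cannot show whether a deletion took place. The 5 libraries labelled Drp1_WT in tubes 11 to 15 (of mice 3 and 4) had low Dnm1l, at 116 to 156 CPM. The other libraries labelled Drp1_WT were at 234 to 322 CPM, and those labelled Drp1_KO at 144 to 274 CPM. Directions below are therefore those of the labels. Tube 10 of mouse b, labelled Drp1_KO, stood apart. Its 10 oocyte markers summed to 4318 CPM against 19926 to 33375 CPM in the other 35 libraries. Most of that sum was Oosp1, at 3273 CPM and inside the range of the others (1403 to 3985 CPM). The other oocyte markers, among them Zp3 and Gdf9, each lay below the other 35 libraries. The 8 immune markers of tube 10 summed to 753 CPM against 2.08 to 8.84 CPM. Some carrier results are given without tube 10. All other values of mouse b and means under the Drp1_KO label include it. The 14 granulosa and cumulus markers summed to 83.8 to 150 CPM in libraries labelled Drp1_KO and 95 to 156 CPM in those labelled Drp1_WT. Ptx3 was at 0 in all of them. Most of these sums was Cyp19a1 (41.2 to 86.2 CPM per oocyte) and Nr5a2 (21.8 to 51.7 CPM). Fshr, Cyp11a1 and Hsd3b1 were less even, at 0 to 24.3, 0 to 24.4 and 0.156 to 27.1 CPM. Similar sums thus do not show that libraries held similar follicle cell RNA. The 7 stroma and endothelium markers summed to 12.7 to 53.1 CPM and 23.9 to 67.1 CPM under the Drp1_KO and Drp1_WT labels. Most of this was Pecam1, at 11 to 63 CPM per oocyte, and Cdh5 was at 0 in all.

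Oocytes expressed most of the family. A gene was called expressed where at least 18 of the 36 oocytes had 1 CPM or more, and 32 of 45 carriers (71.1%) were, beside 51.3% of all genes and 51.7% of protein-coding genes. Counts were found in every oocyte for 27 carriers and in at least 1 oocyte for 43. The 13 carriers that were not expressed include several that are known from other tissues or serve as a second copy of an expressed carrier. Slc25a24 and Slc25a27 had counts in 23 and 22 oocytes, Slc25a18 and Slc25a37 in 14 each, Slc25a29 and Slc25a47 in 9 each, Slc25a45 in 7, Slc25a42 in 6, Slc25a54 in 2, and Slc25a41 and Slc25a43 in 1 each. Slc25a2 and Slc25a34 had 0 counts in all 36 libraries. With a stricter minimum of 5 CPM, 23 carriers were expressed, beside 39.3% of all genes.

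Levels of different carriers were compared as CPM per kilobase of exon, averaged over the mice of each label and then over both labels. At the top stood Slc25a5 at 141, Slc25a31 at 112 and Slc25a17 at 103 CPM per kilobase. The mouse means of Slc25a5 (126 to 157) overlapped those of Slc25a31 (105 to 135), and the latter overlapped those of Slc25a17 (87.1 to 124), so neighbours among these 3 did not separate by mouse. A wide gap followed. Slc25a48 stood at 25.5, Slc25a14 at 24.1, Slc25a4 at 21.1, Slc25a15 at 20.4, Slc25a1 at 17.1 and Slc25a3 at 14.3 CPM per kilobase, each with mouse means that overlapped those of its neighbours. The highest mouse mean in this second set was 36.3 (Slc25a48), below the lowest mouse mean of the first 3. The lowest expressed carrier was Slc25a25 at 0.137. The 5 highest carriers together held 70.9 ± 4.17% (SD, n = 4) of the family's summed level per kilobase in mice labelled Drp1_KO and 67.7 ± 3.37% (SD, n = 5) in mice labelled Drp1_WT.

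**Figure D1:**
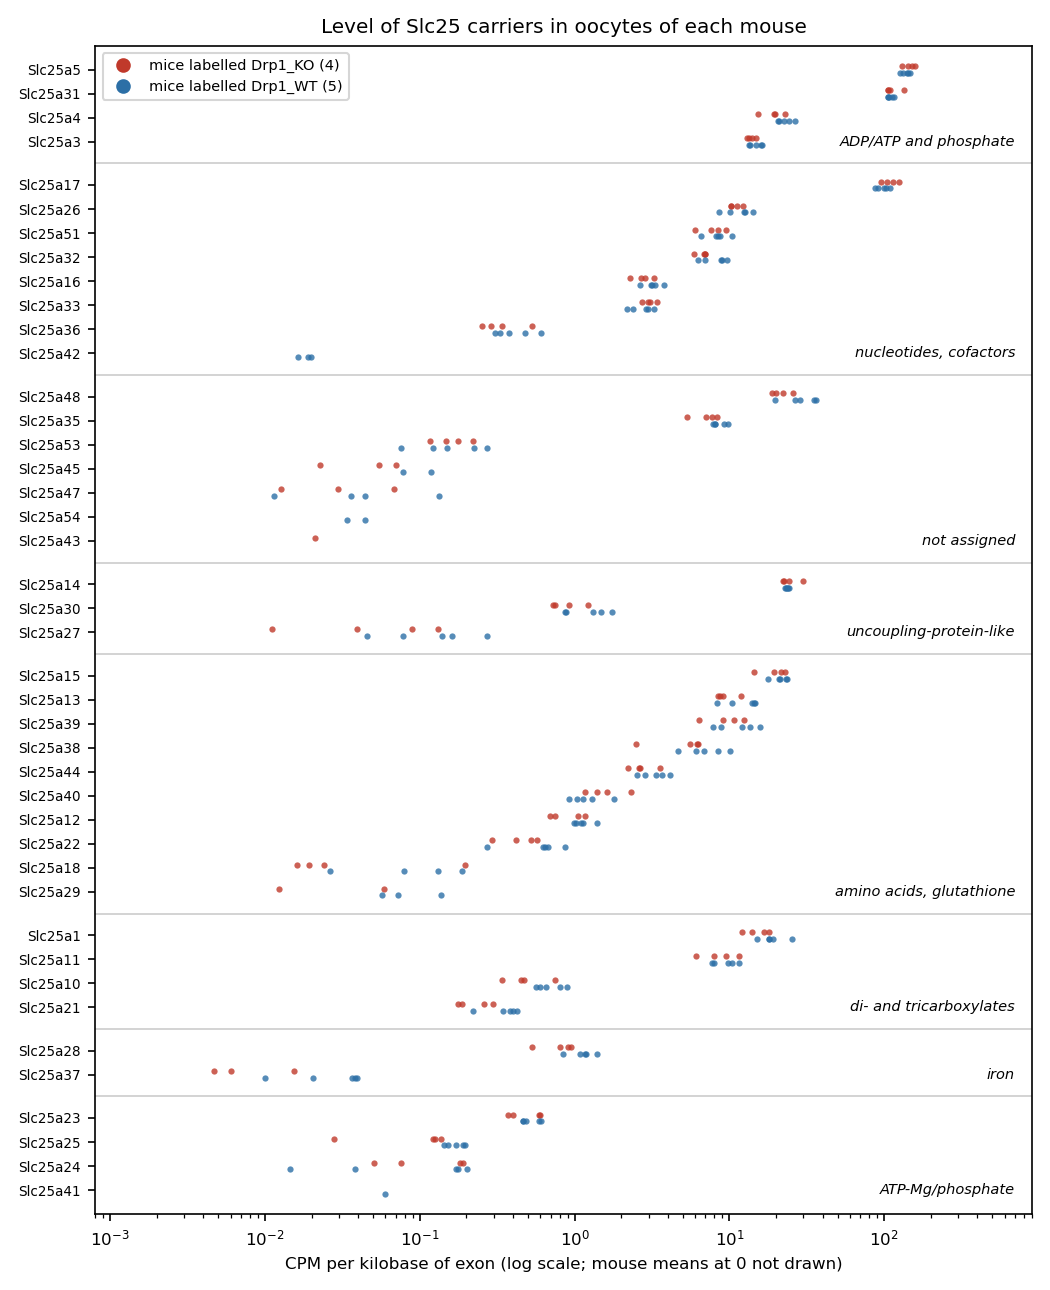
Level of Slc25 carriers in CPM per kilobase of exon (log axis), grouped by substrate; each point is the mean of the oocytes of 1 mouse, red for the 4 mice labelled Drp1_KO and blue for the 5 labelled Drp1_WT. Slc25a5, Slc25a31 and Slc25a17 lie above 87, and every other carrier lies at or below 36.3; Slc25a2 and Slc25a34, at 0 in all libraries, are not drawn.

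The ADP/ATP carriers were led by Slc25a5 and Slc25a31. Slc25a5 (Ant2) is the form of many dividing tissues, Slc25a31 (Ant4) is known mainly from male germ cells, and Slc25a4 (Ant1) is the form of heart and muscle. Per kilobase, Slc25a5 made up 53 ± 2.08% of the 3 in mice labelled Drp1_KO and 50.9 ± 1.83% in mice labelled Drp1_WT. Slc25a31 made up 39.9 ± 2.31% and 40.5 ± 1.10%, and Slc25a4 7.10 ± 1.39% and 8.54 ± 1.21% (SD, n = 4 and n = 5). Without tube 10 the shares under the Drp1_KO label were 52%, 41% and 6.94%. Per kilobase, the order of the 3 carriers was the same in the means of all 9 mice. Among single oocytes, Slc25a31 was above Slc25a5 in KO tubes 4 (47.7% against 46.7%) and 8 (46.9% against 44.6%). In plain CPM, not divided by length, Slc25a31 stood above Slc25a5 in mice a, b, 1, 2, 4 and 5.

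Slc25a5 stood at 259, 213, 233 and 248 CPM in mice a to d and at 207, 231, 240, 216 and 236 CPM in mice 1 to 5. Slc25a31 stood at 287, 225, 231 and 226 CPM in mice a to d and at 225, 240, 224, 227 and 247 CPM in mice 1 to 5. The mice of both labels overlapped for each gene, and mouse a was the highest for both. In mouse b, Slc25a5 was 255 CPM and Slc25a31 278 CPM without tube 10. Slc25a4 stood at 45.5, 46, 53.4 and 35.8 CPM in mice a to d and at 62.8, 52.6, 48.7, 57 and 48.9 CPM in mice 1 to 5. Mice a, b and d lay below all 5 mice labelled Drp1_WT and mouse c inside their range, as did mouse b without tube 10 (55 CPM). Slc25a3, the phosphate carrier, stood at 74.6, 77.1, 82.8 and 72.3 CPM in mice a to d and at 74.8, 74.4, 89.3, 82.1 and 89.6 CPM in mice 1 to 5. The mice of both labels overlapped for Slc25a3 as well.

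**Figure D2:**
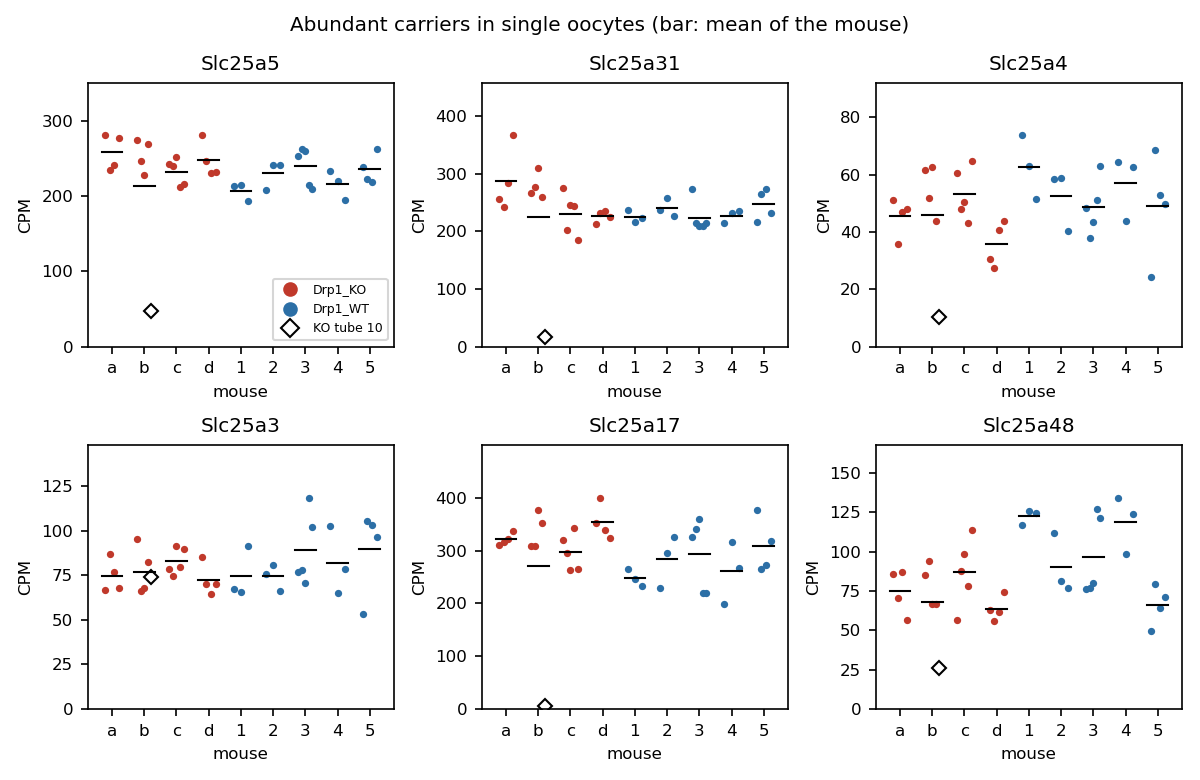
CPM of 6 abundant carriers in each of the 36 oocytes (points; red, labelled Drp1_KO; blue, labelled Drp1_WT), by mouse, with a bar at the mean of the mouse and an open diamond for KO tube 10. Apart from tube 10, Slc25a5 runs from 194 to 281 CPM and Slc25a31 from 185 to 366 CPM, and oocytes of both labels overlap in each panel.

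Carriers of nucleotides, cofactors and vitamins had 8 of 9 members expressed and a summed level per kilobase of 157 ± 10.5 (SD, n = 4) in mice labelled Drp1_KO and 150 ± 6.32 (SD, n = 5) in mice labelled Drp1_WT. Most of it was Slc25a17, the peroxisomal carrier of coenzyme A and related cofactors (ENSMUSG00000022404, chromosome 15, 81318911 to 81360812, minus strand). Slc25a17 stood at 322, 270, 297 and 354 CPM in mice a to d and at 248, 283, 293, 261 and 308 CPM in mice 1 to 5. Mice a and d lay above all 5 mice labelled Drp1_WT, as did mouse b without tube 10 (336 CPM), while mouse c lay inside their range. The carrier of S-adenosylmethionine, Slc25a26, was at 11.3 CPM per kilobase, the NAD carrier Slc25a51 at 8.16, the folate carrier Slc25a32 at 7.39 and Slc25a16 at 2.98. Of the pyrimidine nucleotide carriers, Slc25a33 was at 2.89 and Slc25a36 at 0.386. In mice labelled Drp1_KO and Drp1_WT, Slc25a26 averaged 52.6 ± 4.50 and 55.6 ± 10.8 CPM, Slc25a51 43.4 ± 8.04 and 46.6 ± 7.55 CPM, and Slc25a32 40.5 ± 2.95 and 49.3 ± 8.78 CPM (SD, n = 4 and n = 5). The mice of both labels overlapped for these as for Slc25a16, Slc25a33 and Slc25a36. Slc25a42, a coenzyme A carrier of the inner membrane, was the member that was not expressed, at 0.00551.

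Amino acid and glutathione carriers came in pairs of unequal level. Of the aspartate/glutamate carriers, which form part of the malate-aspartate shuttle, Slc25a13 (citrin) stood at 11 CPM per kilobase and Slc25a12 (aralar) at 1.02. The lowest mouse mean of Slc25a13 (8.31) lay above the highest of Slc25a12 (1.39). Of the glutathione carriers, Slc25a39 stood at 10.6 and Slc25a40 at 1.43, and the lowest mouse mean of Slc25a39 (6.32) lay above the highest of Slc25a40 (2.31). The ornithine carrier Slc25a15 stood at 20.4, while its relative Slc25a2 was at 0 in all libraries. The glutamate carrier Slc25a22 was at 0.534 and its relative Slc25a18 at 0.0744, below the level called expressed. Slc25a38, a glycine carrier needed for haem synthesis, was at 6.16, and Slc25a44, a carrier of branched-chain amino acids, at 3.03. The 11 members summed to 49.6 ± 8.94 per kilobase (SD, n = 4) in mice labelled Drp1_KO and 59 ± 10.8 (SD, n = 5) in mice labelled Drp1_WT.

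Slc25a15 stood at 121, 129, 109 and 81.5 CPM in mice a to d and at 133, 120, 118, 130 and 99.8 CPM in mice 1 to 5. Without tube 10 mouse b was at 116 CPM. The lowest mice were d and 5, the 2 mice with tube numbers 27 to 30. Slc25a13 stood at 32.9, 34.5, 45.2 and 32.2 CPM in mice a to d and at 55.6, 53.4, 39.7, 55 and 31.6 CPM in mice 1 to 5. Mice 1, 2 and 4 lay above all others, and mouse 5 lay below all mice labelled Drp1_KO. Slc25a40 stood at 13.5, 19.4, 9.76 and 11.7 CPM in mice a to d and at 7.76, 9.50, 10.8, 15.1 and 8.71 CPM in mice 1 to 5, and was 13.3 CPM in mouse b without tube 10. Slc25a38 stood at 15.2, 17.3, 16.8 and 6.80 CPM in mice a to d and at 27.7, 18.7, 16.7, 23.1 and 12.8 CPM in mice 1 to 5. Both labels overlapped for each of these carriers. The remaining expressed members averaged 26.5 ± 7.19 CPM under the Drp1_KO label and 32 ± 9.01 CPM under the Drp1_WT label for Slc25a39, 6.71 ± 1.71 and 8.27 ± 1.18 CPM for Slc25a12, 9.84 ± 2.02 and 11.9 ± 2.29 CPM for Slc25a44, and 2.71 ± 0.745 and 3.69 ± 1.30 CPM for Slc25a22 (SD, n = 4 and n = 5).

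The 4 carriers of di- and tricarboxylates were all expressed, led by Slc25a1, the citrate carrier, at 17.1 CPM per kilobase, and Slc25a11, the oxoglutarate/malate carrier, at 9.14. Slc25a10, the dicarboxylate carrier, and Slc25a21, the oxodicarboxylate carrier, were at 0.602 and 0.293. Slc25a1 stood at 36, 30.2, 39 and 26.2 CPM in mice a to d and at 54.5, 38.8, 39.2, 41.1 and 32.5 CPM in mice 1 to 5. Without tube 10 mouse b was at 37.1 CPM. Mouse 1 was the highest and mouse d the lowest, and the labels overlapped. Slc25a21 stood at 1.26, 0.860, 0.912 and 1.45 CPM in mice a to d and at 1.69, 1.87, 2.07, 1.07 and 1.95 CPM in mice 1 to 5, where mouse 4 lay inside the range of the mice labelled Drp1_KO and the other 4 above it. Slc25a11 averaged 18.6 ± 4.94 and 20.2 ± 3.48 CPM and Slc25a10 1.73 ± 0.590 and 2.43 ± 0.493 CPM under the Drp1_KO and Drp1_WT labels (SD, n = 4 and n = 5), and the mice overlapped for both.

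Of the 2 mitoferrins, which bring iron into the matrix, Slc25a28 (mitoferrin-2) was expressed at 0.966 CPM per kilobase and Slc25a37 (mitoferrin-1), the form of red cell precursors, was at 0.0176, with counts in 14 oocytes. Slc25a28 stood at 3.41, 3.00, 3.54 and 2.00 CPM in mice a to d and at 4.37, 4.07, 4.41, 5.26 and 3.16 CPM in mice 1 to 5, and mouse 5 lay inside the range of the mice labelled Drp1_KO. Among the uncoupling-protein-like members, Slc25a14 was at 24.1 and Slc25a30 at 1.08 CPM per kilobase, while Slc25a27 was not expressed. Slc25a14 stood at 56.9, 70.3, 53 and 52.5 CPM in mice a to d and at 57.3, 55.2, 53.6, 55.7 and 56.2 CPM in mice 1 to 5. The high value of mouse b was that of tube 10, without which it was 54.1 CPM. All 4 ATP-Mg/phosphate carriers, which are regulated by calcium or related to members that are, were low: Slc25a23 at 0.505, Slc25a25 at 0.137, Slc25a24 at 0.122 and Slc25a41 at 0.00600 CPM per kilobase, the latter 2 not expressed.

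Of the 8 members with no substrate assigned here, 3 were expressed, and Slc25a48 (ENSMUSG00000021509, chromosome 13, 56438355 to 56474239, plus strand) was the fourth highest carrier of the family per kilobase. It stood at 74.9, 67.7, 86.8 and 63.6 CPM in mice a to d and at 122, 89.9, 96.4, 119 and 66 CPM in mice 1 to 5. Without tube 10 mouse b was at 78 CPM. All mice labelled Drp1_WT but mouse 5 lay above all 4 mice labelled Drp1_KO, and mouse 5 lay below 3 of them. The other expressed members were Slc25a35 at 7.85 and Slc25a53 at 0.167 CPM per kilobase. Slc25a35 shares 31.3% of its exon bases with Rangrf on the other strand, and reads from the shared bases cannot be assigned to either gene in these unstranded libraries.

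The comparison of the labels asks whether oocytes labelled Drp1_KO hold other amounts of carrier transcripts. The family as a whole summed to 1580 CPM (SD 96.7, n = 4) under the Drp1_KO label, or 1630 CPM (SD 109) without tube 10, and to 1640 CPM (SD 64.2, n = 5) under the Drp1_WT label, a difference smaller than the spread between mice. No single carrier passed an adjusted p of 0.05: edgeR's quasi-likelihood test on counts summed per mouse called 0 of 34 tested carriers, beside 0.0156% of all 12812 genes tested. At an unadjusted p under 0.05 it had 0 carriers, beside 9.69% of all genes. DESeq2 called 0 carriers (0.305% of all genes) and had 1, Slc25a40, at an unadjusted p under 0.05. Limma-voom on single oocytes, with the mouse as a random effect, called 0 (0.0702% of all genes) and had 1, Slc25a48. The share of all genes at that unadjusted p is not given here for DESeq2 or limma-voom. No result is therefore drawn from either carrier.

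Fitted log2 fold changes (Drp1_KO over Drp1_WT) were above 0 for 12 carriers and below 0 for 22 (6332 and 6480 of all genes), with a median of -0.13 beside -0.00 over all genes. Their median size regardless of sign was 0.18, the same as over all genes. Without the 5 low-Dnm1l libraries labelled Drp1_WT the carriers' median was -0.06 and 0 were called. The 95% interval of the fold change lay inside a 2-fold difference either way for 30 of 34 carriers, beside 80.4% of all genes. For 19 carriers it lay inside a 1.5-fold difference, a bound for which the share of all genes is not given here. The 4 carriers with intervals past a 2-fold difference were Slc25a21, Slc25a24, Slc25a25 and Slc25a27, all of low count.

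The smallest p-values belonged to carriers of different substrates that differed in opposite directions. Slc25a40 (glutathione) had a log2 fold change of 0.45 (SE 0.22) and Slc25a17 (peroxisome) one of 0.25 (SE 0.13), each with an adjusted p of 0.523. Slc25a48 was at -0.30 (SE 0.15, adjusted p = 0.529), Slc25a13 at -0.30 (SE 0.16, adjusted p = 0.537) and Slc25a28 at -0.38 (SE 0.21, adjusted p = 0.549). Slc25a5 followed at 0.18 (SE 0.10, adjusted p = 0.564), Slc25a21 at -0.49 (SE 0.29, adjusted p = 0.567) and Slc25a38 at -0.40 (SE 0.25, adjusted p = 0.576). None of these passed the test. Without tube 10, Slc25a40 was at 0.28 (SE 0.19, adjusted p = 0.650) and Slc25a17 at 0.29 (SE 0.12, adjusted p = 0.562), and 0 of the tested carriers were called. Without WT tubes 11 to 15, Slc25a17 was at 0.12, Slc25a5 at 0.08, Slc25a48 at -0.20, Slc25a28 at -0.22 and Slc25a38 at -0.26. Slc25a40 was then at 0.65, Slc25a13 at -0.33 and Slc25a21 at -0.71, and again 0 carriers were called. For the ADP/ATP and phosphate carriers the 95% intervals of the log2 fold change were narrow, from -0.05 to 0.40 for Slc25a5, from -0.09 to 0.36 for Slc25a31, from -0.42 to 0.08 for Slc25a4 and from -0.23 to 0.23 for Slc25a3.

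**Figure D3:**
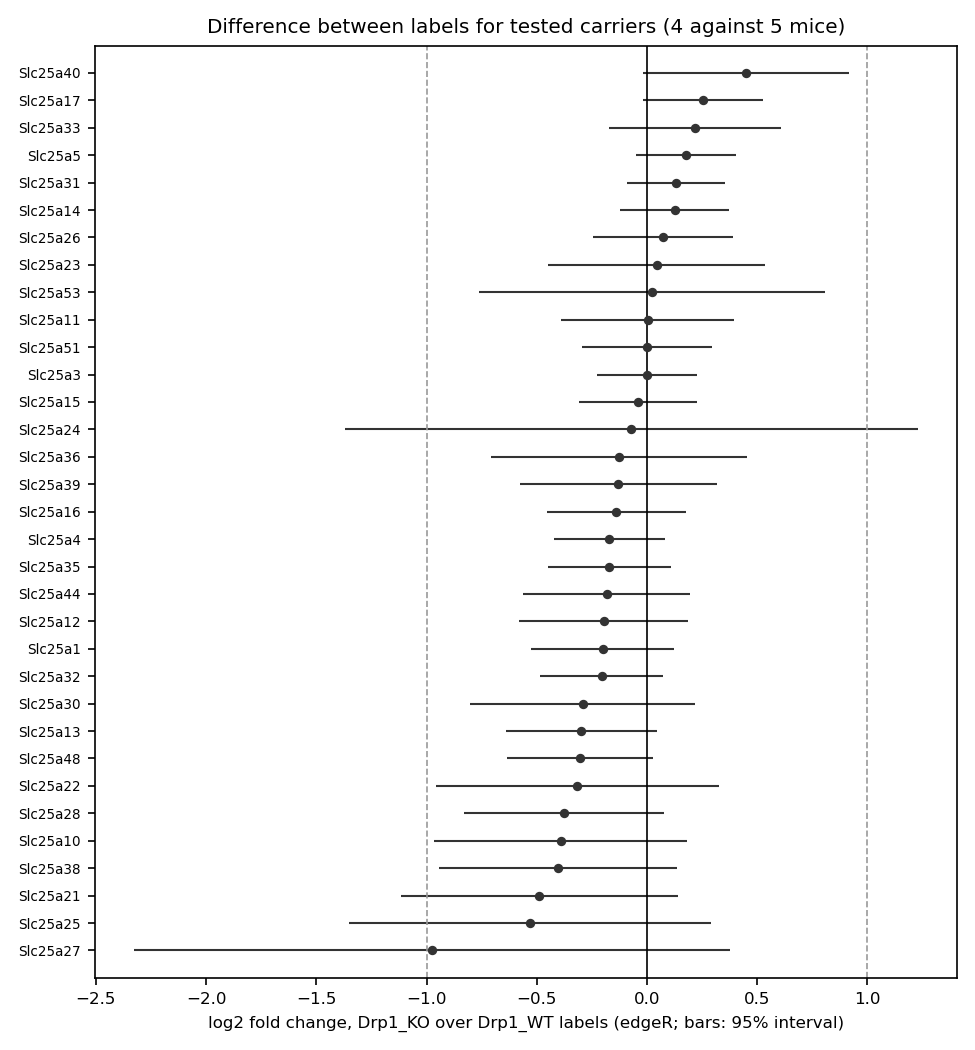
Fitted log2 fold change between labels (Drp1_KO over Drp1_WT) of tested carriers, each with its 95% interval, from 4 against 5 mice; dashed lines mark a 2-fold difference. Every interval drawn includes 0, and 4 reach past a 2-fold difference.

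One carrier had no overlap of the labels in CPM on library totals. Slc25a25, an ATP-Mg/phosphate carrier, stood at 0.987, 1.08, 0.956 and 0.219 CPM in mice a to d and at 1.55, 1.35, 1.48, 1.12 and 1.20 CPM in mice 1 to 5. Every mouse labelled Drp1_KO thus lay below every mouse labelled Drp1_WT for 1 of 34 tested carriers, beside 2.23% of all genes, and above for 0 carriers, beside 0.617%. The highest Drp1_KO mouse (b, at 1.08) and the lowest Drp1_WT mouse (4, at 1.12) were close together. These levels and shares leave out the scaling factors of the fit, which were 0.959 for mouse b and 1.06 for mouse 4. Dividing by them would raise mouse b and lower mouse 4, so the separation depends on the scaling. The log2 fold change of Slc25a25 was -0.53 (SE 0.38, adjusted p = 0.619 by edgeR), at a median of 6.5 counts per oocyte. Without tube 10 mouse b stood at 1.15 CPM, above mouse 4, so the labels overlapped.

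Related transport genes were tested in the same fit. Of 7 other genes of the family outside the naming rule (Slc25a20, Slc25a46, the uncoupling proteins Ucp1 to Ucp3, Mtch1 and Mtch2), 5 were tested and 0 called in either direction, with a median log2 fold change of -0.10. Mtch1, an outer membrane relative of the carriers, had the smallest p of them (13.3 ± 3.02 CPM, n = 4, against 22.3 ± 4.89 CPM, n = 5; log2 -0.63, SE 0.18, adjusted p = 0.471 by edgeR). Of 16 genes whose products import carriers into the inner membrane (the TIM22 and small TIM proteins and the TOM complex), 15 were tested and 0 called, with a median of 0.12. Of 13 other inner membrane transporters, such as the pyruvate carrier subunits Mpc1 and Mpc2 and the calcium uniporter Mcu, 12 were tested and 0 called, with a median of 0.01. The smallest p there was that of Abcb8, an ABC transporter (24.3 ± 7.66 against 40.5 ± 13.2 CPM, SD; log2 -0.60, SE 0.23, adjusted p = 0.499 by edgeR).

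Tube 10 of mouse b held another set of carrier levels. Its carriers summed to 740 CPM, against 1437 to 1790 CPM in the other 35 libraries, at a total of 4893480 counts that lay inside their range. Of 32 expressed carriers, 16 were below all other 35 libraries, beside 47.6% of all expressed genes, and 5 were above all of them, beside 14.8%; the other 11 lay inside the range. The carriers' shares were thus near those of all genes. Slc25a17 was at 6.74 CPM against 198 to 400 CPM elsewhere, and Slc25a31 at 16.8 against 185 to 366 CPM. Slc25a5 was at 47 against 194 to 281 CPM, and Slc25a35 at 0 against 15.6 to 43.7 CPM. The carriers above the range were Slc25a14 (135 against 43.6 to 66.2 CPM), Slc25a15, Slc25a16, Slc25a40 (43.7 against 6.35 to 19.2 CPM) and Slc25a53. Slc25a3 stayed inside the range, at 74 CPM. Among the ADP/ATP carriers Slc25a5 was 70% and Slc25a31 19.3% per kilobase, against 44.6 to 60.2% and 35.2 to 47.7% in the other libraries. Its raised immune markers included Lyz2 at 440 CPM, its oocyte marker Figla was at 0, and the part of these cells or RNA in the carrier levels was not tested.

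**Figure D4:**
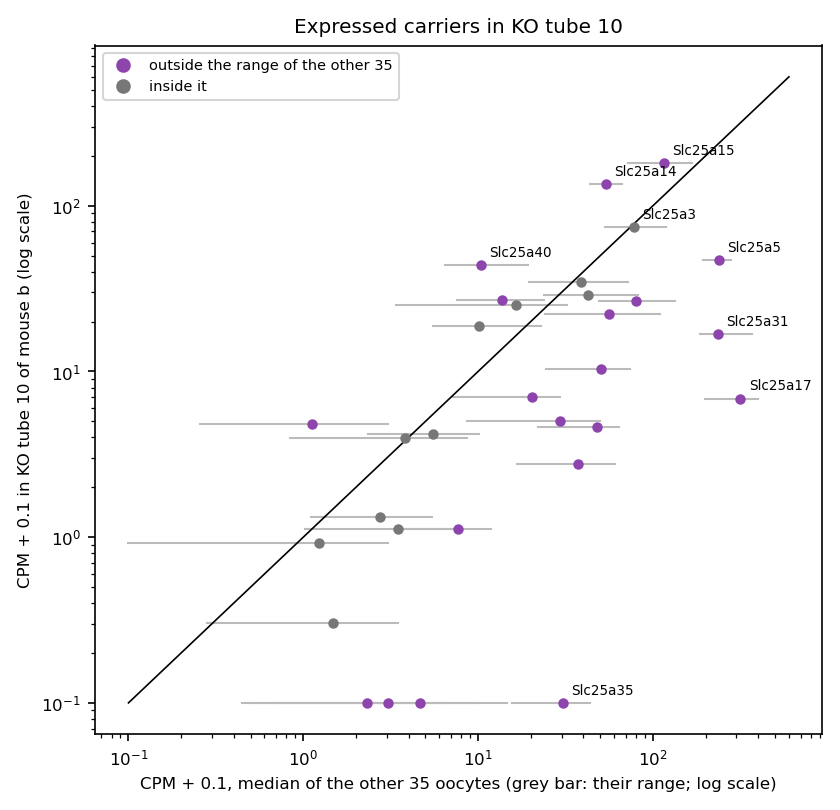
CPM + 0.1 of expressed carriers in KO tube 10 (vertical log axis) against the median of the other 35 oocytes (horizontal log axis; grey bars, their range); the line marks equal levels. Purple points lie outside the range, below it for carriers such as Slc25a17 and above it for 5, among them Slc25a40.

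Mice d and 5, one of each label, have tube numbers 27 to 30, where the other mice have 1 to 15; the labels do not say what the numbers mark. In an edgeR fit with label and tube set as terms, Slc25a38 was lower in tubes 27 to 30 (log2 -0.90, SE 0.20, adjusted p = 0.0315), at 6.80 and 12.8 CPM in mice d and 5 against 15.2 to 27.7 CPM in the other 7. This was 1 of 34 carriers lower, beside 1.4% of all genes, and 0 were higher, beside 3.58%. Without tube 10, 3 carriers were lower (Slc25a38, Slc25a39 at an adjusted p of 0.0321 and Slc25a22 at 0.0336), beside 3.34% of all genes, and 1 was higher (Slc25a17 at 0.0466), beside 6.33%. Slc25a39 stood at 17.4 and 21.6 CPM in mice d and 5 against 24.4 to 43.3 CPM in the others, Slc25a22 at 1.76 and 1.62 against 2.50 to 5.21 CPM, and Slc25a17 at 354 and 308 against 248 to 336 CPM, with mouse b taken without tube 10. Mice d and 5 were the 2 lowest for the first 3 carriers, while for Slc25a17 mice a and b lay between them. The call of Slc25a38 was lost when any of mice a, c, d, 4 or 5 was left out, and without the low-Dnm1l libraries of tubes 11 to 15. Granulosa and cumulus markers summed to 96.6 to 137 CPM in tubes 27 to 30 and 83.8 to 156 CPM in tubes 1 to 15 without tube 10. Over all libraries, most of these sums was Cyp19a1 and Nr5a2.

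**Figure D5:**
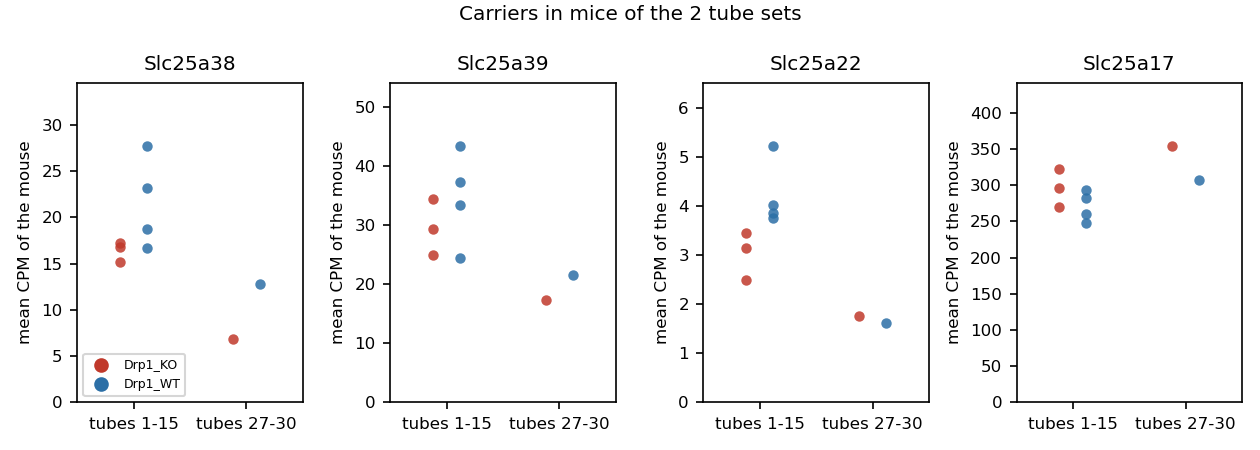
Mean CPM of each mouse (points; red, labelled Drp1_KO; blue, labelled Drp1_WT) for 4 carriers, by tube set; tubes 27 to 30 hold mouse d and mouse 5 alone. Slc25a38, Slc25a39 and Slc25a22 are lowest in these 2 mice, and Slc25a17 is highest in mouse d.

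Carriers also differed in how evenly single oocytes held them. Without tube 10, the coefficient of variation (CV, the SD over the mean) among oocytes of a mouse was smallest for Slc25a5, at 8.58%, and Slc25a14, at 9.40%, where counting error alone would give 2.70% and 5.55%. With tube 10 these values were 12.6% and 14.2%. Between mice, Slc25a14 varied by a CV of 3.14% and Slc25a5 by 7.17%. At the other end of the expressed carriers, Slc25a25 had a CV among oocytes of a mouse of 67.6% and Slc25a21 of 57.6%. Their counting errors were 39.2% and 35.4%. Carriers that were not expressed varied more, such as Slc25a27 (125%) and Slc25a24 (122%), at medians of 1 and 1.5 counts per oocyte. Slc25a4 varied more among oocytes (20.5%) than Slc25a5 or Slc25a31 (9.68%), at a counting error of 5.69%.

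Expressed carriers also had more CpG pairs before their start sites. In the 250 bases upstream of a RefSeq start (GRCm38.p6; 35 of 45 carriers matched; the start with the most CpG was taken where a gene has several), the 26 expressed carriers had a median of 16.5 CpG pairs and the 9 others 7. Over all protein-coding genes the medians were 17 and 4. Slc25a15 (43) and Slc25a40 (40) held the most. Slc25a29, at 25 CpG pairs, and Slc25a42, at 18, were not expressed, while Slc25a21 was expressed with 4.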

How the data were processed

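The authors deposited raw counts per gene for 36 oocytes, as whole numbers. Per the submitters' processing notes, Picard, STAR, Subread 1.5.2, featureCounts and build GRCm38 were used, in roles the notes leave unsaid. The sources used here do not give the annotation release, the strand setting, or the treatment of multiply matching reads and PCR copies. Intervals of counting error take each read as 1 molecule. Genes were named with GENCODE M21. CPM used each oocyte's own total and was averaged per mouse. Counts were summed per mouse and tested with edgeR 4.0.16 (TMM factors, filter by label, robust quasi-likelihood, 12812 genes, Benjamini-Hochberg). Level per kilobase used union exon length. The scripts were tested on simulated data. No pair of oocytes with the same label agreed within sampling noise (306 pairs; smallest chi-square 5.00 per degree of freedom).

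Values per mouse are given for the ADP/ATP and phosphate carriers, the 10 highest carriers per kilobase and the 8 smallest p-values. They are also given for the 2 largest and 2 smallest spreads among oocytes, ranked over expressed carriers. Of each list, up to 3 genes were allowed, with more named for the oocyte and the granulosa and cumulus markers. The values of 1 member are not reported here. The comparison of tube sets was added after seeing the data. Members, lists and libraries that stand apart were chosen with earlier results of these data known. Alternatives were DESeq2 1.42.0, limma 3.58.1 (voom and trend), other scaling and filters, thinning, libraries left out and each mouse left out. Mice may come from the same litter or not; p-values measure the spread between these mice.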

Additional observations from a re-analysis of the deposited data

Results flagged for a closer look

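Mouse means of each expressed carrier were searched, within each label, for 1 mouse far from the others relative to the range of the label. Of 64 such groups 2 stood out, and chance alone picks about 1 in 20 groups. Slc25a25 was 0.219 CPM in mouse d, where the other mice labelled Drp1_KO were at 0.956 to 1.08 CPM. Slc25a31 was 287 CPM in mouse a, against 225 to 231 CPM in the other mice labelled Drp1_KO. The latter rests on tube 10, since mouse b was 278 CPM without it. For Slc25a25, mouse b was 1.15 CPM without tube 10, and whether mouse d would still stand out then is not given here.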

How the results depend on the processing

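No paired analysis was possible because the mice carry letters under one label and numbers under the other. Under 22 alternatives for each of 15 named carriers, 330 fits in all, 314 kept their direction, 0 passed an adjusted p of 0.05 and adjusted p ran from 0.243 to 1.00. The other 16 turned direction, for 4 carriers with log2 fold changes from -0.04 to 0.13. Slc25a3 (-0.00) was at 0.00056 with RLE factors, 0.0063 with no filter, 0.014 with limma-trend, 0.0023 without the mitochondrial genome, 0.046 without tubes 27 to 30, 0.014 without WT tubes 11 to 15 and 0.020 also without WT tube 29 and KO tube 10. Slc25a31 was at -0.0041 with voom and Slc25a14 at -0.063 without WT tubes 11 to 15, WT tube 29 and KO tube 10. Slc25a15 (-0.04) was at 0.011 without tubes 27 to 30 and 0.018 without WT tubes 11 to 15. With each mouse left out, Slc25a3 ran from -0.036 to 0.049 and Slc25a15 from -0.12 to 0.050. The median over tested carriers ran from -0.19 to -0.08 with each mouse left out and was -0.23 with library totals, where the median over all genes was -0.09. The number of carriers lower in tubes 27 to 30 was 3 without KO tube 10 (3.34% of all genes) and 0 without WT tubes 11 to 15 (0.00792%). The number higher was 1 without KO tube 10 (6.33% of all genes). Counts with each mouse left out are not given, since the shares of all genes in those fits are not given here. Leaving out mouse d or 5 left 1 mouse in that tube set, which the fit takes to vary like the others. The cause of these shifts was not tested. The number of expressed carriers was 23 at 5 CPM (39.3% of all genes) and at 1 CPM per kilobase (40.1%), 27 where 33 oocytes were needed (44.8%), 30 after thinning all oocytes to the smallest total (50.5%), 31 where 9 oocytes of each label were needed (50.4%), and 30 to 32 with each mouse left out. For carriers at a few counts per oocyte, such as Slc25a25, depth limits what could be seen.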
